A study of Mus musculus with 8 samples.

Results

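Amino acid transporter genes are the members of the solute carrier families Slc1a, Slc7a, Slc36a, Slc38a and Slc43a, with Slc3a1 and Slc3a2, the heavy chains that carry several Slc7a proteins to the cell surface. They were chosen by symbol, with a minimum of 0.5 RPKM in at least 2 of the 8 libraries, and 25 of the 42 family genes in the table met it, of 46955 named entries in all. RPKM is the number of reads of a gene scaled by the gene's length and by the library's assigned reads, so it can be compared between genes. The last gene inside the minimum was Slc7a15, whose second-highest library held 0.537 RPKM, and the first gene outside it was Slc38a11, at 0.323 in its second-highest library. Of the 17 genes outside, 5 were at 0 in all libraries (Slc7a9, Slc7a12, Slc7a13, Slc36a2 and Slc36a3).

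3 kinds of sorted adult mouse islet cell were sequenced in bulk, with islets of 10 to 12 animals pooled by sex per library. Beta cells were sorted by H2b-mCherry, a nuclear red fluorescent protein under control of the Ins1 promoter (3 libraries, 1 male and 2 female). Alpha cells were sorted by YFP from a floxed allele switched on by Gcg-cre, a Cre expressed from the glucagon gene (3 libraries, 2 male and 1 female). Cells that carried both reporters are called transdifferentiated (2 libraries, 1 male and 1 female): YFP records that a cell or its ancestor expressed Gcg-cre, and mCherry that its Ins1 promoter was active. The series text describes the donors both as triple transgenic animals and as bitransgenic females, without a library for either, and the labels list males as well. The labels name no treatment. The islets were cultured overnight before sorting. The 6 alpha and beta libraries had been deposited earlier. Some titles share a number with or without a letter b, so whether all libraries were separate pools is not known, and p-values measure the spread between these libraries, which may be technical.

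Amino acids are both fuel and signal in the islet. Arginine and other cationic amino acids depolarise endocrine cells as they enter and are classic triggers of glucagon and insulin release, while glutamine and other neutral amino acids feed metabolism and the nutrient sensor mTORC1. Circulating amino acids also control the growth of alpha cells, and Slc38a5 is known from that response. Shortage of amino acids raises the factor ATF4, which acts on genes of transporters, of amino acid synthesis and of tRNA charging.

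The transdifferentiated libraries were shallow, with 1244227 and 2167332 reads recovered from the steps in their RPKM against 12911871 to 21395280 in the other libraries, so for a gene of 2 kb 1 read was worth 0.402 and 0.231 RPKM there and 0.0234 to 0.0387 elsewhere. This gap in depth moved with the group, and its part in the results was not tested. The sorted populations carried the hormone genes of their labels: Ins2 averaged 138333 RPKM in beta, 90662 in transdifferentiated and 985 in alpha libraries. The summed levels of 6 alpha markers, all detected in each group, were 620.5 to 1958 RPKM in beta, 20181 to 20271 in transdifferentiated and 175655 to 204035 in alpha libraries. That placed the transdifferentiated libraries 10.35% and 10.3% of the way from the beta to the alpha mean. By the summed levels of the 7 beta markers they lay farther toward alpha, at 38.59% and 33.29%. The 4 delta cell markers (312 to 891, 2967 to 3096 and 1371 to 3197 RPKM) and the 3 PP and epsilon markers (589.7 to 1274, 8249 to 11439 and 7961 to 13025), in the same order of groups, were also higher in transdifferentiated than in beta libraries, with none at 0. The 10 acinar markers summed to 125 to 3642, 331 to 959.3 and 42.4 to 2641 RPKM, with Amy2a5 at 0 in beta and transdifferentiated libraries and Prss1 at 0 in alpha libraries. The 9 immune markers summed to 92.4 to 108.04 RPKM in beta, 20.05 to 32.8 in transdifferentiated and 9.58 to 27.2 in alpha libraries. Of these Ptprc and Adgre1 were at 0 in transdifferentiated libraries. Endothelial, mesenchymal and Schwann markers summed to at most 11.2 RPKM, with Lum, Sox10 and S100b at 0 in transdifferentiated libraries and Sox10 in alpha libraries. The 6 duct markers summed to 263 to 400.1, 258 to 309.6 and 704 to 1730 RPKM in beta, transdifferentiated and alpha libraries. They did not move together. Spp1 averaged 241, 202 and 1208 RPKM and Muc1 2.49, 5.62 and 9.25, highest in alpha libraries. Krt7 averaged 78.3, 72.4 and 30.3 and Krt19 6.05, 2.82 and 1.96, lowest in alpha libraries. Sox9 and Cftr averaged at most 0.389 RPKM in each group. In bulk samples fewer cells of a type and less RNA per cell cannot be told apart, and the part of other cell types in the values that follow was not tested.

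Alpha and beta cells differed in which transporter genes they expressed most. Alpha cells held more mRNA of Slc38a5, Slc7a2 and Slc7a8, and beta cells more of Slc7a5, Slc7a3, Slc1a4 and Slc7a1. Of the 21 members tested, 6 were higher and 10 lower in alpha cells, and 5 were not called. A gene was called at a Benjamini-Hochberg adjusted p under 0.05 in limma, over the 13172 genes with at least 1 RPKM in at least 2 libraries, and all fold changes below are differences of log2(RPKM + 0.5), which understates changes of low genes. Over all genes tested 43.6% were called (16.9% higher and 26.7% lower). The groups did not overlap in 17 of the 21 members, against 60.6% of all genes. The median difference of the 21 members was -0.23, against -0.05 over all genes. The members' RPKM summed to 641 to 718 in beta and to 802 to 853 in alpha libraries, with 640.4 in each transdifferentiated library. By scale, 38.8% of calls over all genes were higher as deposited and 50.02% after median-ratio scaling, where the members split into 6 higher and 9 lower.

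**Figure D1:**
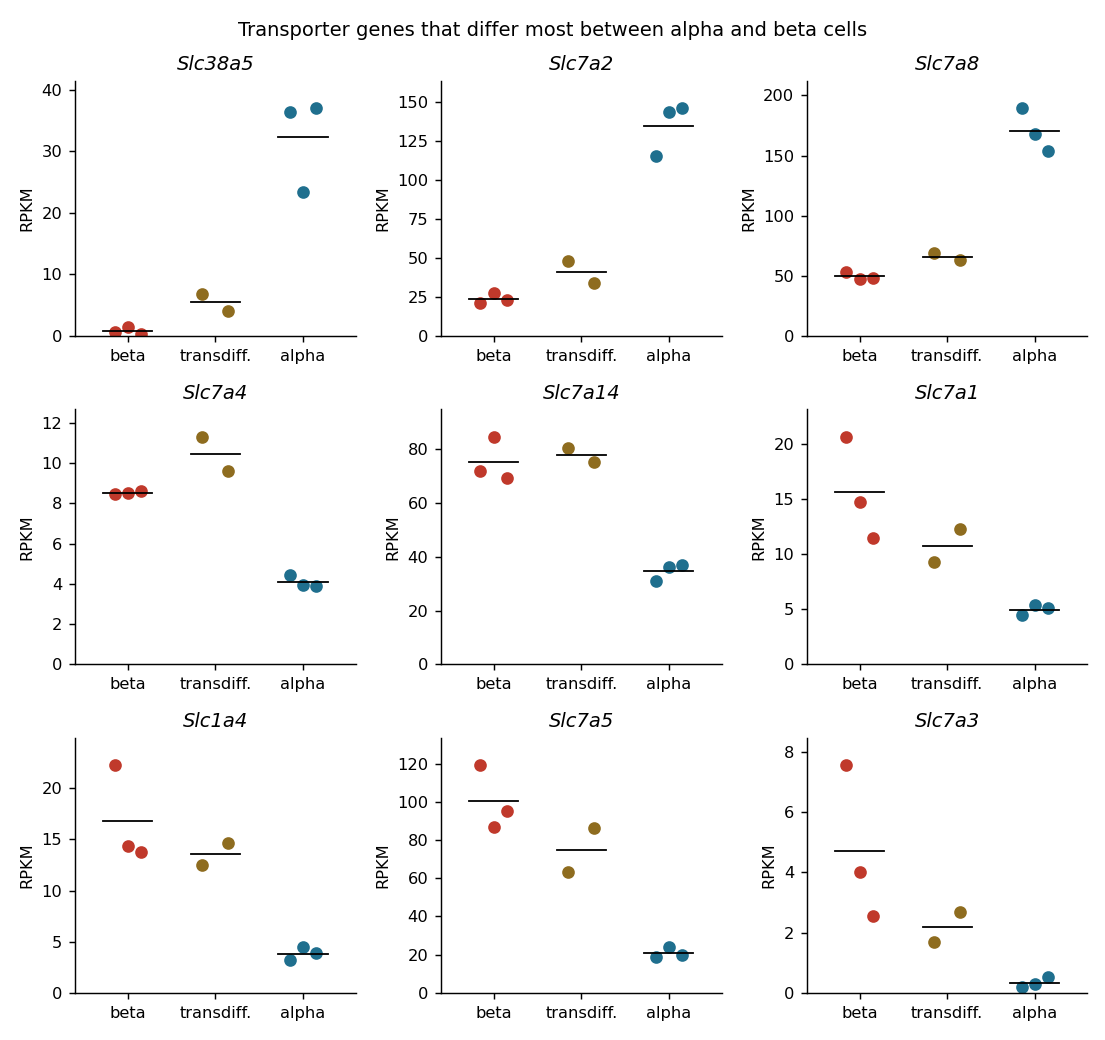
RPKM of the 9 transporter genes with the largest called differences between alpha and beta cells, 1 panel a gene and 1 point a library (beta, transdifferentiated, alpha), with a line at each group mean. Slc38a5, Slc7a2 and Slc7a8 are highest in the alpha libraries and the other 6 are lowest there. Each axis starts at 0.

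Slc7a2, which imports arginine, lysine and ornithine, lies at chr8:40862396-40922308 on the plus strand (GRCm38). Alpha libraries held 115, 143 and 146 RPKM, beta libraries 21.3, 27.5 and 23.1, and transdifferentiated libraries 47.9 and 34.1. The 3 groups did not overlap, and the order was alpha, transdifferentiated, beta. Alpha cells exceeded beta cells by 2.46 (SE 0.17, limma adjusted p = 6.55e-05), a ratio of means of 5.63. Transdifferentiated cells were lower than alpha cells by a log2 difference of -1.71 (SE 0.19, limma adjusted p = 0.000903).

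Its relatives with the same substrates ran the other way. Slc7a1 (chr5:148327410-148399904, minus strand), the widespread cationic carrier, held 20.6, 14.7 and 11.4 RPKM in beta, 9.27 and 12.2 in transdifferentiated, and 4.44, 5.38 and 5.10 in alpha libraries. All alpha libraries lay below all others, while the beta and transdifferentiated libraries overlapped. The difference of alpha from beta was -1.41 (SE 0.18, limma adjusted p = 0.000836). Slc7a3 (chrX:101079210-101086020, minus strand), a cationic carrier best known from the brain, held 7.55, 4.03 and 2.54 RPKM in beta, 1.70 and 2.68 in transdifferentiated, and 0.205, 0.295 and 0.525 in alpha libraries. Its transdifferentiated values rested on 8 and 22 reads, and its difference of alpha from beta was -2.31 (SE 0.26, limma adjusted p = 0.000537). Beta libraries 1 to 3 thus spanned a wide range for both genes, with replicate 1 highest.

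Within the 3 cationic carriers, Slc7a2 made up 96.1% to 96.3% of the summed RPKM in each alpha library. Its share was 43.1%, 59.5% and 62.3% in beta and 81.4% and 69.5% in transdifferentiated libraries, which lay between without overlap. The sum of the 3 genes was 120.1 to 152 RPKM in alpha libraries, 37.1 to 49.4 in beta and 58.9 and 49.01 in transdifferentiated libraries. Slc7a14 and Slc7a4 belong to the same branch of the family by sequence, and less is known of what they carry. Slc7a14 held 71.9, 84.6 and 69.4 RPKM in beta, 80.4 and 75.1 in transdifferentiated, and 31.1, 36.2 and 37.1 in alpha libraries. Slc7a4 held 8.47, 8.52 and 8.61 RPKM in beta, 11.3 and 9.62 in transdifferentiated, and 4.44, 3.95 and 3.89 in alpha libraries. Both were lowest in alpha cells, by -1.07 (SE 0.11, limma adjusted p = 0.000332) for Slc7a14 and -1.01 (SE 0.10, limma adjusted p = 0.000283) for Slc7a4 against beta cells. Against alpha cells the transdifferentiated cells were higher by 1.14 in Slc7a14 (limma adjusted p = 0.000701) and by 1.27 in Slc7a4 (limma adjusted p = 0.000305).

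Slc3a2 encodes 4F2hc, the heavy chain that pairs with Slc7a5, Slc7a6, Slc7a7, Slc7a8 and Slc7a11. It was among the 4 most abundant members in every group, at 128, 110.5 and 120.3 RPKM in beta, 82.9 and 101 in transdifferentiated, and 114, 97.7 and 93.8 in alpha libraries. It was called in no comparison (alpha minus beta -0.23, limma adjusted p = 0.169). The light chains did differ. Slc7a5 (LAT1, chr8:121881150-121907694, minus strand), which exchanges large neutral amino acids such as leucine, held 119, 87.1 and 95.0 RPKM in beta, 63.1 and 86.5 in transdifferentiated, and 18.9, 23.9 and 19.6 in alpha libraries. All 3 alpha libraries were below every other library, and both transdifferentiated libraries were below all beta libraries, one by a narrow margin. Alpha cells were lower than beta cells by a log2 difference of -2.20 (SE 0.17, limma adjusted p = 0.000101).

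Slc7a8 (LAT2, chr14:54722209-54781946, minus strand), a neutral exchanger with a broader range of substrates, held 189, 168 and 154 RPKM in alpha, 68.7 and 62.9 in transdifferentiated, and 53.2, 47.3 and 48.1 in beta libraries. The groups did not overlap, and the alpha libraries stood far above the others. Alpha cells exceeded beta cells by 1.74 (SE 0.10, limma adjusted p = 2.63e-05), and transdifferentiated cells differed from alpha cells by -1.35 (SE 0.11, limma adjusted p = 0.000262). The RPKM of Slc7a8 over that of Slc7a5 was 10.003, 7.03 and 7.84 in alpha libraries and 0.447, 0.543 and 0.506 in beta libraries. In the transdifferentiated libraries it was 1.09 and 0.728, between the reference groups and nearer to beta. The sum of the 2 genes was closer, at 173 to 208 RPKM in alpha, 134 to 172 in beta, and 132 and 149 in transdifferentiated libraries.

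**Figure D2:**
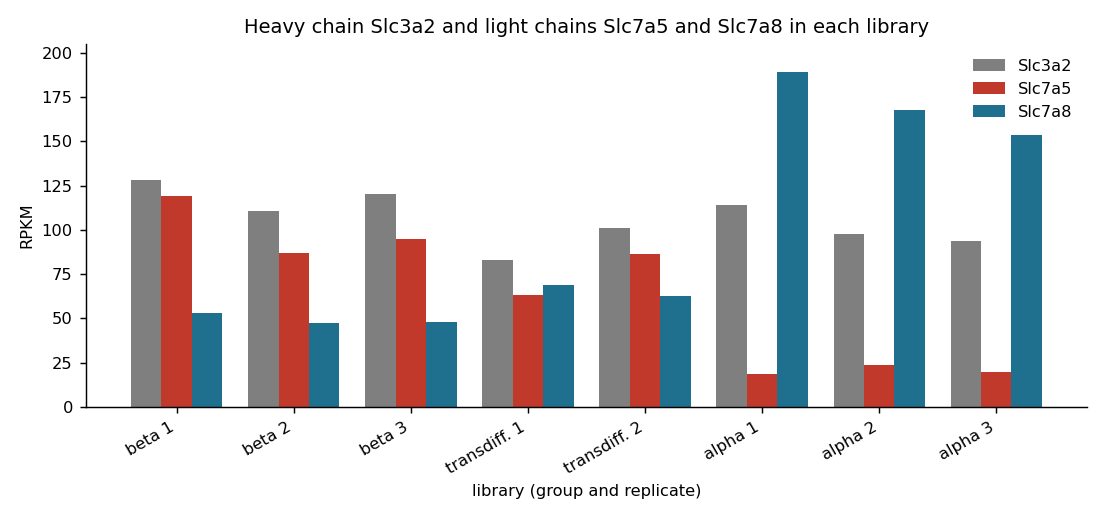
RPKM of the heavy chain Slc3a2 and the light chains Slc7a5 and Slc7a8 in each of the 8 libraries, as bars from 0. Slc7a5 exceeds Slc7a8 in the 3 beta libraries, Slc7a8 exceeds Slc7a5 in the 3 alpha libraries, and in the transdifferentiated libraries the ratio of Slc7a8 to Slc7a5 is 1.09 and 0.728.

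Slc7a6, which exchanges cationic for neutral amino acids, was higher in alpha than in beta cells (means 11.6 and 7.90 RPKM, log2 difference 0.56, limma adjusted p = 0.0201). This call was lost without beta replicate 1 (adjusted p = 0.0543 in limma), beta replicate 3 (0.0738), alpha replicate 2 (0.0588) or alpha replicate 3 (0.163). Slc43a2 (LAT4), which carries branched-chain amino acids and needs no heavy chain, averaged 20.8 RPKM in beta, 26.6 in transdifferentiated and 24.7 in alpha cells and was called in no comparison.

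Slc7a11, the cystine importer xCT, was below 1 RPKM in all but 1 library and was not among the genes tested. It held 0.955, 0.889 and 0.441 RPKM in beta libraries (248, 265 and 88 reads), 0.289 and 1.13 in transdifferentiated libraries (5 and 34 reads), and 0.0389, 0.0374 and 0.0357 in alpha libraries (7 reads each). Alpha libraries lay below every other library, and the ratio of beta to alpha means was 20.4. With the filter set at 0.5 RPKM it was lower in alpha than in beta cells by a log2 difference of -1.04 (SE 0.27, limma adjusted p = 0.0212). In that fit it was higher in transdifferentiated than in alpha cells by 0.99 (limma adjusted p = 0.0431). With no filter on low values 9 members were called higher than in alpha cells in limma, and Slc7a11 was not among them. Slc7a7, Slc7a15 and the heavy chain Slc3a1 passed the same 0.5 RPKM filter and were not called in any comparison. They stayed below 1 RPKM in all libraries, and Slc7a7 and Slc7a15 each had 0 reads in 1 transdifferentiated library.

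Slc1a4 and Slc1a5 exchange small neutral amino acids. Slc1a4 (ASCT1, chr11:20302180-20332713, minus strand), which carries serine and alanine, held 22.2, 14.3 and 13.7 RPKM in beta, 12.5 and 14.7 in transdifferentiated, and 3.20, 4.46 and 3.88 in alpha libraries. Alpha libraries lay below all others, and beta and transdifferentiated libraries overlapped. The difference of alpha from beta was -1.90 (SE 0.20, limma adjusted p = 0.000349). Slc1a5 (ASCT2, chr7:16781340-16798274, plus strand), best known for glutamine, held 3.80, 3.55 and 4.57 RPKM in alpha, 1.88, 2.46 and 1.82 in beta, and 3.85 and 3.87 in transdifferentiated libraries (20 and 35 reads). Beta libraries were below all others, and the transdifferentiated libraries lay within the alpha range. Alpha cells exceeded beta cells by 0.87 (SE 0.14, limma adjusted p = 0.00289).

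The Slc38a family moves glutamine and other small neutral amino acids with sodium. Slc38a5 (SNAT5, chrX:8271133-8280179, plus strand), a glutamine carrier that works in both directions, held 36.4, 23.3 and 37.0 RPKM in alpha libraries (1054, 702 and 1168 reads). It held 0.646, 1.42 and 0.311 in beta libraries (27, 68 and 10 reads), and 6.81 and 4.12 in transdifferentiated libraries (19 and 20 reads). The groups did not overlap, and the ratio of alpha to beta means was 40.7, the largest among the members tested. The log2 difference was 4.81 (SE 0.35, limma adjusted p = 7.74e-05). Transdifferentiated cells were lower than alpha cells by -2.51 (SE 0.38, limma adjusted p = 0.00345), at 16.95% of the alpha mean.

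Slc38a4, an importer best known from liver, was the most abundant member in alpha cells at 186 ± 27.3 RPKM (SD, n = 3). It averaged 105 ± 8.16 in beta cells (SD, n = 3) and 84.5 ± 3.90 in transdifferentiated cells (SD, n = 2). Alpha cells were higher than beta cells by 0.87 (limma adjusted p = 0.00086), and transdifferentiated cells were lower than alpha cells by -1.15 (limma adjusted p = 0.000676). Slc38a2 (SNAT2), the carrier raised by amino acid shortage in many cells, and the lysosomal Slc38a7 were lower in alpha cells, by -0.59 against beta cells (limma adjusted p = 0.0101) and -0.87 (limma adjusted p = 0.000966). Slc38a10 was lower by -0.31 (limma adjusted p = 0.0213). The Slc38a10 call was lost without beta replicate 2, beta replicate 3 or alpha replicate 3 (adjusted p 0.0552, 0.171 and 0.0679 in limma) and on a median-ratio scale (0.0753), and its difference was 0.065 after quantile normalization. The Slc38a2 call was lost without alpha replicate 3 (0.0854) and after quantile normalization (0.0918), with limma in both. Slc38a6 and Slc38a9, the lysosomal arginine sensor, averaged 0.943 to 1.56 RPKM in the 3 groups, on 10 to 23 reads in a transdifferentiated library, and were called in no comparison.

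Of the proton-coupled carriers, Slc36a1 (PAT1), which exports small amino acids from lysosomes and acts on mTORC1, averaged 13.9 ± 2.25 RPKM in beta (SD, n = 3), 17.9 ± 3.33 in transdifferentiated (SD, n = 2) and 7.86 ± 0.480 in alpha cells (SD, n = 3). It was lower in alpha than in beta cells by -0.78 (limma adjusted p = 0.00651). Slc36a4 averaged 9.64, 7.64 and 9.96 RPKM in the same order and was called in no comparison.

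**Figure D3:**
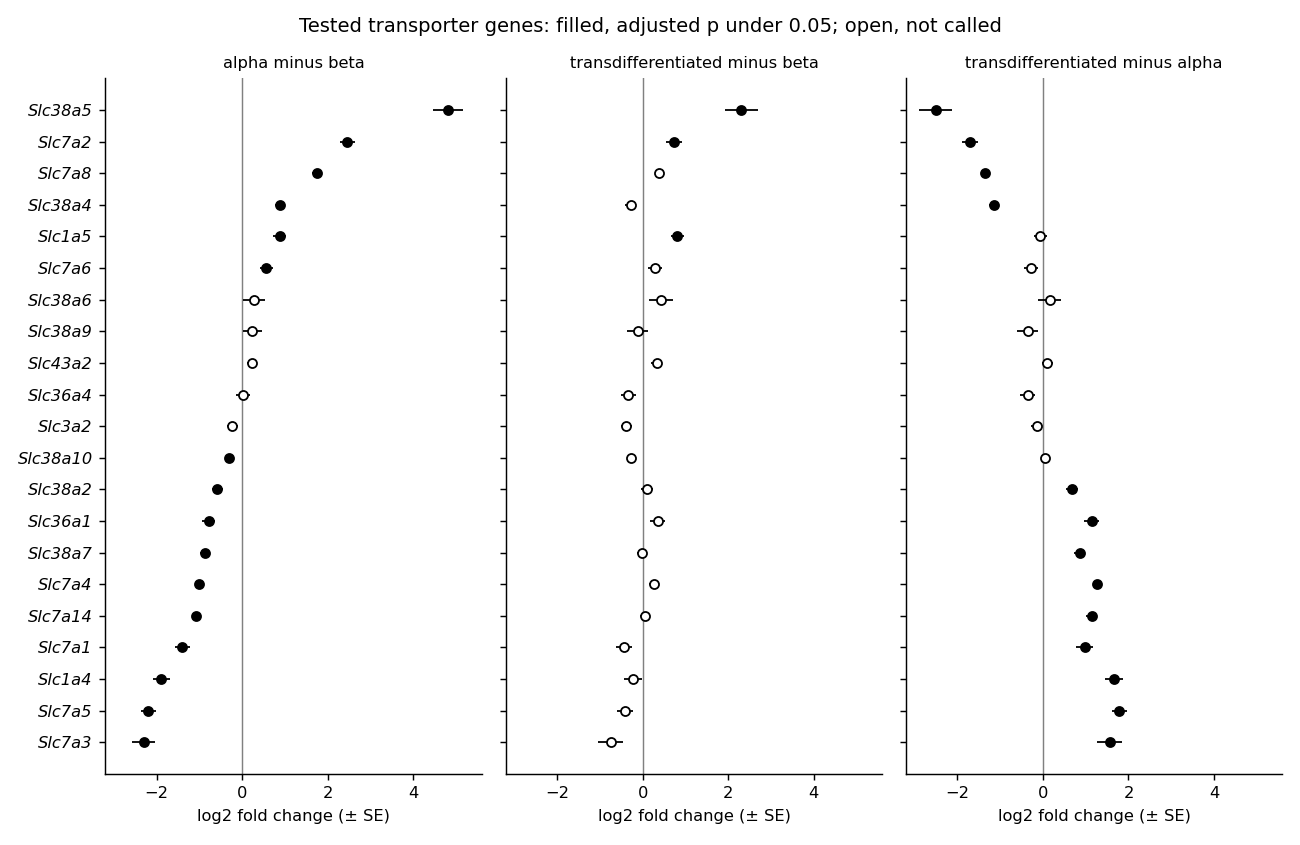
Log2 fold changes on the log2(RPKM + 0.5) scale, with standard errors, of the 21 tested transporter genes in the 3 comparisons, ordered by the alpha minus beta difference. Filled points have an adjusted p under 0.05 in limma and open points do not. Of the 21 genes 16, 3 and 13 are filled from left to right.

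Against beta cells, the transdifferentiated cells were higher in 3 members and lower in none. The 3 were Slc38a5, Slc1a5 and Slc7a2. That is 3 of 21 members, beside 12.0% of all genes tested (9.10% higher and 2.90% lower), and 10 members had an unadjusted p under 0.05. The groups did not overlap in 13 of 21 members, against 46.3% of all genes, and the median difference was 0.06, against 0.09 over all genes. The share of all calls that were higher was 75.8% as deposited and 52.7% after median-ratio scaling, where 2 members were higher and 2 lower. Slc38a5 was higher by 2.30 (SE 0.38, limma adjusted p = 0.0161), with both transdifferentiated libraries above all 3 beta libraries. Slc1a5 was higher by 0.81 (SE 0.15, limma adjusted p = 0.0231) and Slc7a2 by 0.74 (SE 0.19, limma adjusted p = 0.0467), again in 2 of 2 libraries.

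None of the 3 calls held under every alternative. Without transdifferentiated replicate 1 the limma adjusted p was 0.0553 for Slc38a5, 0.0747 for Slc1a5 and 0.181 for Slc7a2. Without beta replicate 1 it was 0.0522, 0.0667 and 0.127 in limma, and without beta replicate 3 it was 0.0706, 0.0972 and 0.169. The Slc7a2 call was also lost without beta replicate 2 (0.0532) or without any 1 alpha replicate (0.0504 to 0.0798), with limma in each case. It was lost as well with no filter on low values (0.0967), median-ratio scaling (0.0556), quantile normalization (0.0613), limma voom (0.0541) and only the 2 groups in the fit (0.127), so in 12 of 18 alternatives. Slc1a5 was also lost with no filter (0.0548), quantile normalization (0.077), limma voom (0.0731) and only the 2 groups (0.114), and Slc38a5 with only the 2 groups (0.096). The direction stayed the same for the 3 genes in all 18 alternatives run.

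The other members that divide alpha from beta cells were not called between transdifferentiated and beta cells. Slc7a8 had a difference of 0.39 (SE 0.11, limma adjusted p = 0.0584), Slc7a5 of -0.41 (SE 0.19, limma adjusted p = 0.183), Slc7a1 of -0.43 (SE 0.19, limma adjusted p = 0.172), Slc7a3 of -0.75 (SE 0.28, limma adjusted p = 0.123) and Slc1a4 of -0.23 (SE 0.21, limma adjusted p = 0.495). An adjusted p above the threshold does not show that these levels were equal.

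Against alpha cells, 13 of 21 members were called, 9 higher and 4 lower in transdifferentiated cells, beside 29.9% of all genes tested (23.2% higher and 6.67% lower). The groups did not overlap in 13 members, against 53.0% of all genes, and the median difference was 0.11, against 0.17 over all genes. As deposited 77.6% of all calls were higher, and 51.5% after median-ratio scaling, where 9 members were higher and 6 lower. The 4 lower genes were Slc38a5, Slc7a2, Slc7a8 and Slc38a4. Among the 9 higher genes, Slc7a5 differed by 1.79 (SE 0.19, limma adjusted p = 0.000694), Slc1a4 by 1.67 (SE 0.21, limma adjusted p = 0.00165), Slc7a3 by 1.56 (SE 0.28, limma adjusted p = 0.007) and Slc7a1 by 0.98 (SE 0.19, limma adjusted p = 0.00902). Slc7a4, Slc7a14, Slc36a1, Slc38a7 and Slc38a2 made up the rest, with differences of 0.69 to 1.27. The Slc38a2 call was lost without transdifferentiated replicate 1 (limma adjusted p = 0.0835) or without alpha replicate 3 (0.0569). Slc1a5 was not called against alpha cells (-0.06, SE 0.15, limma adjusted p = 0.808). Both comparisons share the transdifferentiated libraries. No member was called on the same side of both references in limma, beside 2.95% of all genes tested. After median-ratio scaling 1 member was, Slc38a4, at -0.42 against beta cells (limma adjusted p = 0.0477) and -1.38 against alpha cells.

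Where the transdifferentiated libraries lay on the way from beta to alpha differed by gene. Among the alpha-high members, replicates 1 and 2 lay 19.15% and 10.57% of the way from the beta to the alpha mean for Slc38a5, 21.6% and 9.12% for Slc7a2, and 15.9% and 11.1% for Slc7a8. These values stand beside 10.35% and 10.3% for the summed alpha markers. Slc1a5 lay at 93.5% and 94.4%, close to the alpha mean. Slc38a10 lay at 88.35% and 91.15%. Among the 4 members with the largest beta-high differences, Slc7a3 was farthest toward alpha, at 68.9% and 46.4%, followed by Slc7a1 at 59.5% and 31.4%. Slc7a5 stood at 46.9% and 17.5%, and Slc1a4 at 33.2% and 16.1%. The summed beta markers stood at 38.59% and 33.29%, between the values of Slc7a3 and Slc1a4. For these 4 genes replicate 1, the male and shallower library, was nearer to alpha than replicate 2. Slc38a4, Slc38a2, Slc36a1 and Slc7a4 lay beyond the beta mean in both libraries, from -9.52% to -106.6%.

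**Figure D4:**
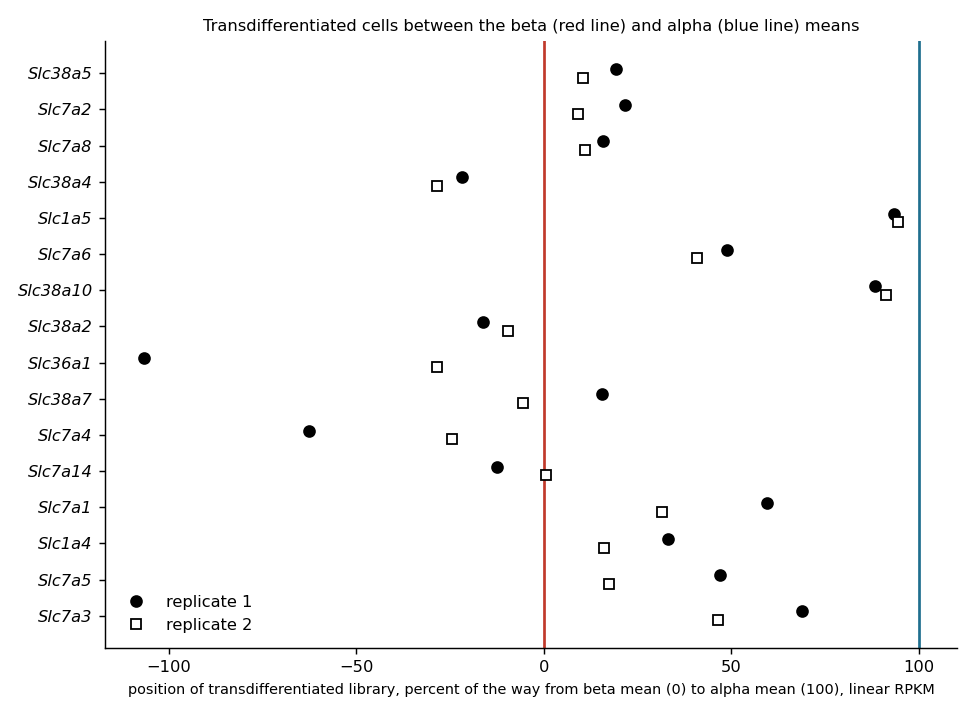
Position of each transdifferentiated library between the mean of the beta libraries (0%, red line) and that of the alpha libraries (100%, blue line) on linear RPKM, for the 16 members called between alpha and beta cells. Slc1a5 and Slc38a10 lie near the alpha line and Slc38a5, Slc7a2 and Slc7a8 near the beta line.

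Whether the alpha to beta contrast differed between sexes was tested too: by the limma interaction term 0 of 21 members were called, 0 at an unadjusted p under 0.05, and 0 of 13172 genes, with 1 to 2 libraries per sex and group.

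The wider amino acid genes were counted from lists written from general knowledge with earlier results of these data known, so the counts are descriptions. Of the 16 tested other carriers, 1 was higher and 10 were lower in alpha cells, compared with beta cells, beside 16.9% higher and 26.7% lower over all genes tested. Slc6a19, a neutral amino acid importer known from gut and kidney, averaged 4.94 RPKM in beta and 0.0838 in alpha cells, a log2 difference of -3.24 (limma adjusted p = 1.39e-05). Slc16a10, which carries aromatic amino acids and is named here after its values were seen, was the carrier that was higher, at 75.7 against 35.4 RPKM (log2 difference 1.05, limma adjusted p = 0.000195). Between transdifferentiated and beta cells none of the 16 was called in limma, beside 12.0% of all genes. Against alpha cells 11 were higher and 1 lower, beside 23.2% and 6.67% of all genes.

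Of the 30 tested amino acid enzymes, 5 were higher and 22 lower in alpha cells, against beta cells, beside 16.9% and 26.7% of all genes tested. The list's median was -1.09 against -0.05 over all genes. Transdifferentiated cells were higher than beta cells in 4 of the 30 and lower in 2, beside 9.10% and 2.90% of all genes. They were higher than alpha cells in 17 and lower in 3, beside 23.2% and 6.67% of all genes. The enzymes higher in alpha than in beta cells included some that act on arginine and ornithine. Oat, ornithine aminotransferase, averaged 0.924 RPKM in beta, 4.96 in transdifferentiated and 28.1 in alpha cells, with alpha above beta by 4.35 (limma adjusted p = 1.27e-05). Arg1, arginase, averaged 2.86, 17.5 and 19.8 RPKM in the same order (2.55, limma adjusted p = 0.000332). Both were also higher in transdifferentiated than in beta cells, by 1.97 for Oat (limma adjusted p = 0.00538) and 2.41 for Arg1 (limma adjusted p = 0.00561). These calls of Oat and Arg1 were kept when any 1 alpha or beta library was left out. Those between transdifferentiated and beta cells were lost with only the 2 groups in the fit (limma adjusted p = 0.0768 for Oat and 0.0794 for Arg1). Arg1 was not called between transdifferentiated and alpha cells (-0.14, limma adjusted p = 0.761). Among the lower enzymes Phgdh, the first step of serine synthesis, averaged 12.5, 7.04 and 0.36 RPKM (-3.78, limma adjusted p = 5.48e-05). Cbs, of transsulfuration, averaged 19.1, 6.61 and 6.14 RPKM, and was lower in transdifferentiated than in beta cells by -1.43 (limma adjusted p = 0.0044). This Cbs call was lost with only the 2 groups in the fit (limma adjusted p = 0.0731).

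Of 27 tested genes of mTORC1 amino acid sensing, 4 were higher and 12 lower in alpha than in beta cells, beside 16.9% and 26.7% of all genes tested. The median of the list was -0.27, against -0.05 over all genes. Of the 4 genes of Rag GTPases, which bring mTORC1 to the lysosome, Rragb was higher and the other 3 were lower in alpha cells. Rragb averaged 25.0 RPKM in beta, 39.4 in transdifferentiated and 109.8 in alpha cells (2.11, limma adjusted p = 2.26e-05), and Rragd averaged 40.7, 31.8 and 12.7 (-1.67, limma adjusted p = 5.99e-05). The other two, named after their values were seen, differed by -0.70 for Rragc (limma adjusted p = 0.000401) and -0.33 for Rraga (limma adjusted p = 0.0354). The Rraga call was lost with no filter (limma adjusted p = 0.0647), on a median-ratio scale (0.159) and without beta replicate 1 (0.0904), beta replicate 3 (0.132), alpha replicate 2 (0.0741) or alpha replicate 3 (0.249), and its difference was 0.048 after quantile normalization. Rragb was the 1 gene of the 27 called between transdifferentiated and beta cells (0.64, limma adjusted p = 0.0245), beside 12.0% of all genes. That call was lost without beta replicate 1 (limma adjusted p = 0.0679) or beta replicate 3 (0.106). In limma it was also lost with no filter (0.0536), the letter b as a further term (0.0501), median-ratio scaling (0.0529) and only the 2 groups (0.103). Without transdifferentiated replicate 1, which leaves 1 library in that group, the difference was 0.47. That value does not show that the call was kept. Against alpha cells 9 of the 27 were higher and 2 lower in transdifferentiated cells, beside 23.2% and 6.67% of all genes.

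Each of the 21 genes of the ATF4 response was called in the alpha to beta contrast, 1 as higher and 20 as lower in alpha. Over all genes tested 16.9% were higher and 26.7% lower. The list's median was -2.03 against -0.05 over all genes. Trib3 averaged 82.1 RPKM in beta, 42.7 in transdifferentiated and 2.504 in alpha cells (-4.75, limma adjusted p = 3.78e-05). Atf5 averaged 235, 117 and 11.4 RPKM (-4.37, limma adjusted p = 1.32e-05), and Chac1 79.7, 52.2 and 3.90 (-4.14, limma adjusted p = 6.78e-05). Between transdifferentiated and beta cells 3 were lower and 18 not called, beside 2.90% lower over all genes, and the list's median was -0.45 against 0.09. Against alpha cells 17 were higher, beside 23.2% of all genes, with a median of 1.55 against 0.17. The 3 were Wars, which charges tRNA with tryptophan (-1.03, limma adjusted p = 0.0042), Atf5 (-1.01, limma adjusted p = 0.0343) and Ddit4 (-0.63, limma adjusted p = 0.0167). Wars stayed called when any 1 alpha or beta library was left out and was lost with only the 2 groups (limma adjusted p = 0.0716). Ddit4 was lost in limma without beta replicate 1 (0.0555) or 3 (0.0825), with voom (0.0712) and with only the 2 groups (0.096). Atf5 was lost in limma without beta replicate 1 (0.0774), 2 (0.0543) or 3 (0.0874) or alpha replicate 2 (0.0669). It was also lost in limma with no filter (0.0805), quantile normalization (0.071) and only the 2 groups (0.0928). Without transdifferentiated replicate 1 the differences were -0.51 for Ddit4 and -0.84 for Atf5, and without replicate 2 -1.22 for Atf5. These fits leave 1 library in that group, so only differences are given, and they do not show that the calls were kept. The 8 members known as ATF4 targets were Slc7a1, Slc7a3, Slc7a5, Slc7a11, Slc3a2, Slc38a2, Slc1a4 and Slc1a5. Of the 7 tested, 5 were lower in alpha cells, Slc1a5 was higher and Slc3a2 was not called, beside 26.7% lower and 16.9% higher over all genes.

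**Figure D5:**
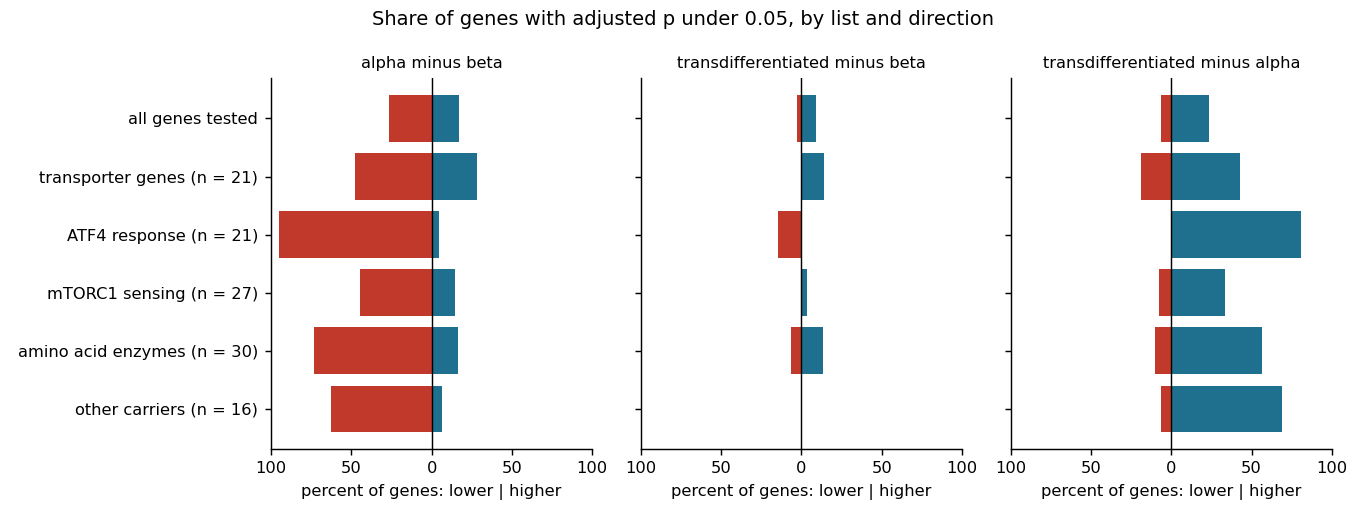
Percent of tested genes called higher (blue, right) or lower (red, left) in limma, in the 3 comparisons, for 4 amino acid lists, the transporter genes and all genes tested. In the alpha minus beta panel the ATF4 response has 20 of 21 genes lower, and the transporter genes have 6 higher and 10 lower.

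The promoters of the members were searched for the letters TGATGNAA on both strands (TTNCATCA on the other), a form of the composite element bound by C/EBP and ATF4 factors. The window was the 250 bases before each RefSeq start (GRCm38.p6). Of the 25 members 20 had a window. Slc7a2, Slc7a3, Slc7a4, Slc7a5 and Slc1a5 had none and were not searched, and Slc7a3, Slc7a5 and Slc1a5 are listed ATF4 targets. The motif was found in 3 of the 30 windows of members, in 2 genes, Slc7a11 and Slc7a7, and in 1134 (3.45%) of all 32851 windows. Slc7a11 was chosen for printing after its sequence was seen. Slc1a4, a listed ATF4 target without the letters, and Slc38a5 and Slc7a8, high in alpha cells, are shown beside it. Capitals mark the motif in the Slc7a11 window (chr3:50443614-50443863, minus strand), where it occurs once on each strand, starting 66 and 47 bases before the start. The other windows are chr11:20332714-20332963 (minus), chrX:8271131-8271380 (plus) and chr14:54781887-54782136 (minus).
Slc7a11: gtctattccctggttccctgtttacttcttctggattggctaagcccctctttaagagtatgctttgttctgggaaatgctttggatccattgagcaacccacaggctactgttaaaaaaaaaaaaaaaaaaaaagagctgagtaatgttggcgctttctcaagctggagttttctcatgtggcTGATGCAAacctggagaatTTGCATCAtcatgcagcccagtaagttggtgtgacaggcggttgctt
Slc1a4: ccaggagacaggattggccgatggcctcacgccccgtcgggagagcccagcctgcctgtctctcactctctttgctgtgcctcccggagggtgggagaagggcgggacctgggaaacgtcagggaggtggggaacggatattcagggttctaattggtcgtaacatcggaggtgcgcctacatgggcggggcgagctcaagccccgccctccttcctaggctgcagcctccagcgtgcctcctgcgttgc
Slc38a5: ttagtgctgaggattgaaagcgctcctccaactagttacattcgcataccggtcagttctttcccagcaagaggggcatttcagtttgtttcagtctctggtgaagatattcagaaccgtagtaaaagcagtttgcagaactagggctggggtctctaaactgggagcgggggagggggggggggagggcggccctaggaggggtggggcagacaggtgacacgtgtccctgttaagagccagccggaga
Slc7a8: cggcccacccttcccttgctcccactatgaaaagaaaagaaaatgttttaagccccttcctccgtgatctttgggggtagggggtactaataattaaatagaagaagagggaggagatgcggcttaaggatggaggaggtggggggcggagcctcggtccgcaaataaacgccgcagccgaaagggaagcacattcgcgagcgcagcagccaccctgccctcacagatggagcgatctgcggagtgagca
These windows describe sequence only, and the absence of these letters from a window says nothing of the factor.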

How the data were processed

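RNA of pools of sorted mouse islet cells was sequenced in 8 libraries with an unstranded kit (TruSeq RNA kit v2, per the labels' protocols). A gene and its antisense partner cannot be told apart, and close paralogs can share reads. The authors deposited a table of RPKM per gene and library. The build GRCm38.p4 and the tools edgeR 3.14.0, featureCounts and STAR 2.5 are named in the submitters' processing notes, and the annotation and strand setting were not given there. Of 46959 entries, 4 with repeated names were left out and 26786 were above 0.

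Whole reads were recovered from the RPKM steps and GENCODE M21 exon lengths (78.5% of 25353 matched genes whole in all libraries within 0.01 read; lengths of 6875 more were solved). They summed to close to the library sizes that the steps imply. Both come from the same steps, so this closeness is no check of the recovered depths.

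The main test was limma 3.58.1 in R 4.3.3 (lmFit, eBayes with trend) on log2(RPKM + 0.5), all 8 libraries in 1 fit with group and sex as terms, over 13172 genes with RPKM of at least 1 in at least 2 libraries. It was tested on simulated data. Of the 25 members 21 were tested; all 21 reached 1 RPKM in libraries of at least 2 groups. Members, lists and the genes named (values per library for called members with an absolute alpha to beta log2 change of at least 1, or called against beta; up to 4 genes a list and comparison) were chosen with earlier results of these data known. Coordinates are GENCODE M21 and promoters RefSeq. The alternatives are another pseudocount, filter, covariates, scaling, voom on reads, fewer groups and leaving out a library.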

Additional observations from a re-analysis of the deposited data

How the results depend on the processing

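Over 18 alternatives, 13 of the 16 members called between alpha and beta cells and 12 of the 13 called between transdifferentiated and alpha cells were called under every one, and 0 of the 3 called between transdifferentiated and beta cells. That last count rested on few libraries. It was 3 as reported, 1 with no filter on low values, 5 with the letter b as a further term, 1 with limma voom on recovered reads, and 0 with only the 2 groups in the fit (7 at an unadjusted p under 0.05). Without 1 library it ranged from 0 to 4, and was 0 without transdifferentiated replicate 1, beta replicate 1 or beta replicate 3. The 11 pathway list genes called in that comparison became 6, 19, 7 and 0 under the same 4 alternatives, and 4 to 11 without 1 library (4 without transdifferentiated replicate 1 or beta replicate 3, 5 without beta replicate 1). The 11 list genes include Slc1a5, a member that is also on the list of ATF4 targets. Over all genes, 1580 were called between transdifferentiated and beta cells as reported, 769 with voom, 877 with no filter and 0 with only the 2 groups. The cause of these changes was not tested. Leaving out 1 library gave 13 to 16 members between alpha and beta cells and 12 to 13 between transdifferentiated and alpha cells. The count of members outside the range of both references went from 0 to 1 (Slc38a4) with median-ratio scaling.

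Scaling moved the median of all genes. Between transdifferentiated and alpha cells it was 0.17 as deposited, -0.04 after median-ratio scaling, and -0.05 after normalization by quantiles. The share of calls that were higher went from 77.6% to 51.5% and 49.9%. Between transdifferentiated and beta cells this share went from 75.8% to 52.7% and 55.2%, and between alpha and beta cells from 38.8% to 50.02% and 49.98%. Members called higher and lower between transdifferentiated and alpha cells were 9 and 6 under both scalings, and between alpha and beta cells 6 and 9, then 7 and 8.

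Among the 31 differences of members not called, 12 changed sign under some alternative and 9 were called under some alternative. With the letter b, Slc38a9 against beta was 0.12 and Slc1a5 against alpha 0.012, both for transdifferentiated cells. With median-ratio scaling, transdifferentiated against beta cells gave -0.071 for Slc7a14 and -0.033 for Slc38a2, and against alpha cells -0.12 for Slc43a2, -0.011 for Slc38a6 and -0.18 for Slc38a10. With quantile normalization, alpha against beta cells gave 0.075 for Slc3a2, and transdifferentiated against alpha cells -0.17 for Slc43a2 and -0.28 for Slc38a10. Differences that were called between alpha and beta cells also changed sign there, to 0.065 for Slc38a10 and 0.048 for the list gene Rraga. Transdifferentiated Slc38a7 against beta was 0.0015 with voom and 0.0040 with only the 2 groups. Without 1 library, transdifferentiated against beta cells ranged from -0.050 to 0.20 for Slc7a14, -0.053 to 0.23 for Slc38a2 and -0.089 to 0.074 for Slc38a7. Against alpha cells they ranged from -0.32 to 0.056 for Slc3a2, -0.12 to 0.30 for Slc43a2 and -0.078 to 0.41 for Slc38a6. The ranges were -0.19 to 0.045 for Slc1a5, -0.0027 to 0.11 for Slc38a10 and -0.34 to 0.034 for the list gene Arg1. Alpha against beta cells ranged from -0.16 to 0.16 for Slc36a4 and -0.013 to 0.44 for Slc38a6.

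The planned edgeR alternative was not run, since the values are RPKM. No paired analysis was run, because the labels do not say which libraries of different groups came from the same animals. Depth limits the transdifferentiated values of Slc38a5, Slc7a3, Slc7a11, Slc1a5, Slc38a6 and Slc38a9, which rest on 5 to 35 reads a library.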
